A study of Rattus norvegicus with 8 samples.

Results

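The interleukin-6 family was examined here through 9 genes of the rat colon: the secreted ligands Il6, Il11, Lif and Osm, the receptor chains Il6r, Il6st (gp130) and Osmr, the transcription factor Stat3, and Socs3, the inhibitor that STAT3 induces. The members were the probes whose gene name in the scanner files equals 1 of these symbols. That gave 10 of the 30354 gene probes, 1 for each gene and 2 for Il6st. Of the 9 genes, 8 passed the filter on dim probes and were among the 18165 genes tested, and Il6 itself did not pass it.

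The ligands of this family are small secreted proteins that bind a ligand-specific receptor chain and then the shared chain gp130. The kinases bound to that complex phosphorylate STAT3, which enters the nucleus and switches on acute-phase, survival and repair genes. Among those genes is Socs3, whose product binds gp130 and shuts the signal off, so that Socs3 mRNA is widely read as a trace of recent signalling. In the inflamed colon Il6 comes mainly from myeloid and stromal cells, while Il11 and Lif are better known as products of stromal cells and act on the epithelium.

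All rats were female Wistar animals of 14 weeks, and each oil was given in the diet for 8 weeks. The healthy group of 6 rats ate sunflower oil and were given no DSS (dextran sulfate sodium), which damages the gut epithelium when drunk and is a standard way to provoke colitis. The other 3 groups of 10 rats each were given 5% DSS for 7 days. They ate sunflower oil (the n-6 group), alpha-linolenic acid (ALA, an n-3 fatty acid of plants), or fish oil, whose n-3 fatty acids have longer chains. The n-6 and healthy groups thus shared their oil, while the ALA and fish oil groups differed from the healthy group in both oil and DSS. Colon RNA of 6 rats was pooled, and 2 arrays were run per group, so the 6 rats of the healthy group are on both of its arrays. Whether both arrays of a colitis group carry a single pool is not stated in the labels. The p-values below therefore measure the spread between arrays, which may be largely technical. All 8 arrays lay on 1 slide, each group in its own stretch of it, so slide position and group cannot be told apart.

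Values are log2 levels, that is log2 of the processed spot signal minus the 75th percentile of the same array, so that 0 is a bright gene and lower values are dimmer. That percentile lay between 239 and 440 signal units on 7 arrays and at 115 on fish oil replicate 1, where 54.0% of probes were well above background against 59.8% to 70.1% elsewhere. The colon label was borne out, with 13 of 14 colon epithelium markers well above background on all 8 arrays. Levels of different probes are not set against each other.

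The probes are shown because each level below is the brightness of a 60-base sequence, and the Il6 probe is the one on which the family's best-known ligand rests. They are given 5′ to 3′ as the scanner files hold them, for the 6 genes whose probes lie in the coding part of the mRNA. The capitals in Socs3 mark its closing TAA stop codon.
Il6: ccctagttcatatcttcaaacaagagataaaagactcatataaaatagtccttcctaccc
Il11: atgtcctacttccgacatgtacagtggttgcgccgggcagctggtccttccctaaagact
Lif: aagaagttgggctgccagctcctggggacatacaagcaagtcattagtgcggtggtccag
Osm: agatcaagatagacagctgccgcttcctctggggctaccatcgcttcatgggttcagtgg
Osmr: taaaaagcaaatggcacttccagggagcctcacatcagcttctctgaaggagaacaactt
Socs3: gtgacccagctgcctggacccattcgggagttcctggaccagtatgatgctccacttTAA

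On the rn4 build named in the file headers, the Il6 probe (A_44_P371339, NM_012589) lies at chr4:457279-458563 on the minus strand. It spans 1285 bases of genome for its 60 bases, so it crosses an intron. G and C make up 35.0% of the Il6 probe, 45.0% of the Osmr probe and 55.0% of each of the Il11, Lif, Osm and Socs3 probes. The Il11 probe lies at chr1:67788418-67788477. Lif and Osm are neighbours, with probes at chr14:84890562-84890621 and chr14:84859880-84859939. The Il6r probe lies at chr2:182078323-182078382, the brighter Il6st probe at chr2:43834062-43834121 and the Osmr probe at chr2:56080710-56080769. The Stat3 probe lies at chr10:89821145-89821204 and the Socs3 probe at chr10:107958636-107958695.

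STAT dimers bind the letters TTCNNNGAA, which read the same on both strands. Of the 9 members, 7 have a promoter in the RefSeq table of the GRCr8 build, and Lif and Osm are not in it. None of the 7 holds these letters in the 250 bases before its start, against 7.67% of the 33469 promoters of the table. The starts were taken as the table gives them, and whether each is where transcription begins was not tested. The search thus says only that the letters are not in that window, not that a gene lacks STAT sites near its promoter.

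Il6 was above background on 1 array of the 8, an n-6 array. The Il6 probe is printed 10 times on each array. On n-6 replicate 1, all 9 spots that were not marked as outliers were well above background, with a mean signal of 17.3. On the other 7 arrays no such spot was, and their mean signals lay between 2.22 on healthy replicate 2 and 7.02 on ALA replicate 1. n-6 replicate 2, at 2.86, lay as low as healthy replicate 1, at 2.88, so the 2 n-6 arrays disagree on whether Il6 was measurable.

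**Figure D1:**
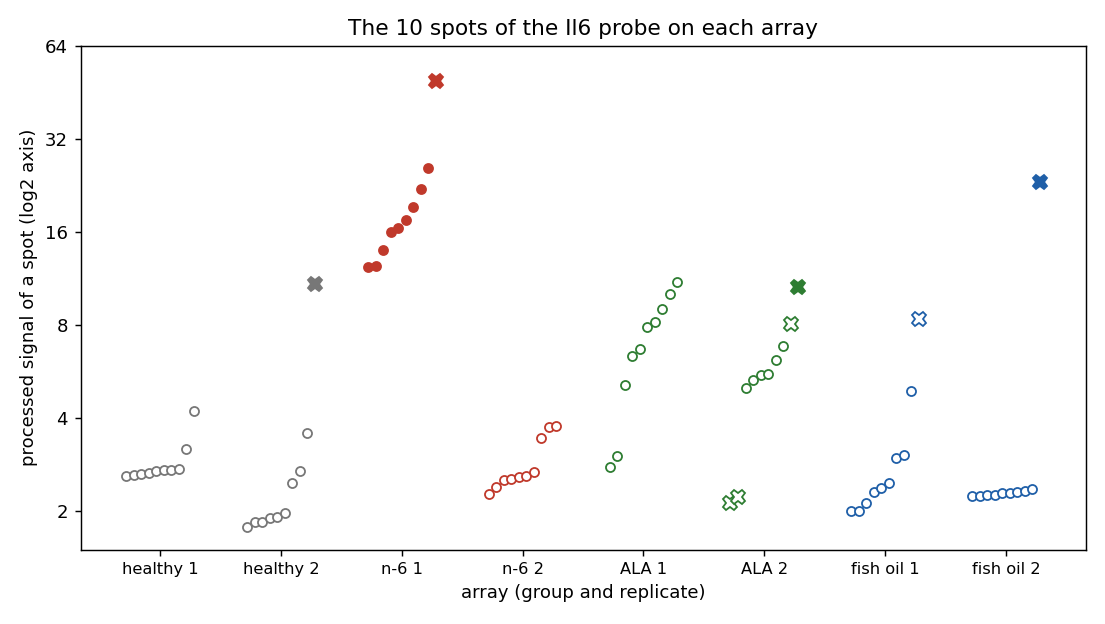
Processed signal (log2 axis) of each of the 10 spots of the Il6 probe on each of the 8 arrays. Circles are kept spots, crosses are spots marked as outliers, and filled symbols are well above background. Kept spots are filled on n-6 replicate 1 alone, and 4 arrays hold 1 filled cross each: healthy 2 (10.8), n-6 1 (49.3), ALA 2 (10.7) and fish oil 2 (23.2).

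As log2 levels, Il6 was at -6.74 and -7.67 on the healthy arrays and at -4.58 and -6.41 on the n-6 arrays. It was at -5.41 and -5.93 with ALA and at -5.48 and -7.15 with fish oil. After scaling, both n-6 and both ALA arrays lay above both healthy arrays, and the fish oil arrays overlapped every other group. Only n-6 replicate 1 was above background, so the order of the other arrays is that of scaled levels too dim to measure. No healthy array was above background, so each healthy level can be replaced by the dimmest level called well above background on its array. The n-6 mean was then 1.64 times the healthy mean. That ratio is no lower bound, since it is carried by n-6 replicate 1 and n-6 replicate 2 was itself not above background.

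Il6 entered no test by the filter used here. With no filter, its n-6 minus healthy difference of 1.71 had an SE of 0.79 and an adjusted p of 0.617 (limma, Benjamini-Hochberg). Leaving out n-6 replicate 1, the 1 array with measurable Il6, brought the difference to 0.79, and it was 0.40 under normexp background correction and 0.58 in the deposited table.

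The order of the groups for Il6 depended on how spots were averaged. Averaging the kept spots puts n-6 highest, then ALA, fish oil and healthy. In the deposited value table the Il6 means were -4.61 for fish oil, -5.22 for ALA, -5.45 for n-6 and -6.02 for healthy, so fish oil is highest there. That table matches, within 0.01 for 99.98% to 99.99% of 22491 symbols with 1 probe, the mean over only those spots well above background wherever a probe has any. On healthy replicate 2, ALA replicate 2 and fish oil replicate 2 its Il6 value thus rests on a single spot, 1 that Feature Extraction marked as an outlier. Fish oil minus n-6 was -0.82 from the kept spots, -0.65 with outlier spots kept and 0.84 in the deposited table.

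Lif, a ligand named for its action on leukaemia cells and active on many epithelia, had its lowest mean in the n-6 group. It lay at -5.23 and -4.60 on the n-6 arrays, neither of them above background. Its levels were -3.98 and -5.20 in healthy colon, -3.51 and -4.29 with ALA and -3.82 and -4.64 with fish oil. Both ALA arrays lay above both n-6 arrays, and the ratio of the group means was 2.02, with the n-6 level not measured above background. That log2 difference of 1.01 (SE 0.54) did not pass, with an adjusted p of 0.91 (limma), and it was 0.23 under normexp background correction and 0.62 without ALA replicate 1.

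Osm, oncostatin M, a product of activated myeloid cells that acts on stroma through OSMR, was at -4.20 and -4.82 in healthy colon and -4.40 and -5.13 in the n-6 group. With ALA it was at -3.99 and -4.08, and with fish oil at -3.41 and -5.14. After scaling, the ALA arrays lay close together and above both healthy and both n-6 arrays, while the fish oil arrays spanned the whole range of the gene. Before scaling, the mean signals were 16.6 and 15.8 (healthy), 19.3 and 7.09 (n-6), 17.7 and 20.6 (ALA) and 11.2 and 9.41 (fish oil). Fish oil replicate 1 is thus the highest array, and ALA clear of n-6, only after scaling. ALA minus n-6 was 0.73 (SE 0.59) and did not pass (limma adjusted p = 0.954). That value was 0.16 under normexp and 0.27 under quantile normalization, and it was 0.36 without n-6 replicate 2.

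Il11, a gp130 ligand linked to epithelial repair and fibrosis, showed no order of groups. Its levels were -4.71 and -5.26 (healthy), -3.99 and -5.74 (n-6), -5.22 and -5.52 (ALA) and -4.32 and -5.44 (fish oil). The 2 n-6 arrays were the highest and the lowest of all 8, and Il11 was above background on both healthy arrays and n-6 replicate 1 only. n-6 minus healthy was 0.12, with a 95% interval from -1.39 to 1.62, so these arrays allow a large difference in either direction.

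Of 7 further ligands listed for the family, 6 are on the array and 4 were tested, and none passed in any of the 6 comparisons. The smallest p-values belonged to Ebi3, the shared subunit of IL-27 and IL-35, and Clcf1, a ligand of the CNTF receptor. Ebi3 was at -2.09 and -2.53 in healthy colon and at 0.25 and -0.99 in the n-6 group, a difference of 1.94 (SE 0.57; limma adjusted p = 0.222). Clcf1 was 1.097 higher in n-6 than in healthy colon and -0.86 in fish oil minus n-6. Il27, which pairs with Ebi3, and Ctf2 did not pass the filter.

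The smallest p-values among the members belonged to the receptor chains. Il6r, which binds IL-6 and hands it to gp130, was well above background on all 8 arrays and was measured by 8 to 10 kept spots on each. Its levels were -1.85 and -1.43 in healthy colon, 0.30 and -0.76 in the n-6 group, -0.67 and -0.60 with ALA, and -1.48 and -1.46 with fish oil. After scaling, the n-6 and ALA arrays lay above all healthy and fish oil arrays, with no overlap. Before scaling, the mean signal on n-6 replicate 2, 142, was below that on healthy replicate 2, 163.

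Il6r was 1.41 higher in the n-6 group than in healthy colon (SE 0.40), the smallest adjusted p of any member there, 0.215 (limma). Without n-6 replicate 1 this was 0.88. Fish oil minus n-6 was -1.24 (SE 0.40; limma adjusted p = 0.41), but -0.71 without n-6 replicate 1 and -0.83 under normexp. ALA exceeded healthy colon by 1.01 (SE 0.40; limma adjusted p = 0.751) and fish oil by 0.83 (limma adjusted p = 0.532). Fish oil minus healthy was 0.17, with an interval from -0.78 to 1.13. None of these Il6r differences passed.

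Il6st encodes gp130, the signal-transducing chain that all 4 ligands use. Its brighter probe was at 2.19 and 2.06 in healthy colon, 3.02 and 2.78 in the n-6 group, 2.06 and 2.47 with ALA, and 2.16 and 1.92 with fish oil. Both n-6 arrays lay above the other 6 arrays after scaling. A single spot measured this probe on each array. Before scaling, its signal on n-6 replicate 2, 1646, was below that on healthy replicate 2, 1836, and ALA replicate 2, 1935. n-6 minus healthy was 0.77 (SE 0.30; limma adjusted p = 0.317), ALA minus n-6 was -0.63 (adjusted p = 0.878) and fish oil minus n-6 was -0.86 (adjusted p = 0.41). These 3 differences did not pass, and no setting tried moved the first or the last by over 1.5 times. The second Il6st probe, designed on another transcript (AY310138, chr2:43842305-43842364), was above background on no array and gives no level.

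Osmr, the receptor chain that pairs with gp130 for oncostatin M, was at -5.38 and -5.30 in healthy colon, 1 of these 2 arrays being above background. It was at -3.28 and -4.08 in the n-6 group, -4.25 and -4.73 with ALA and -2.95 and -4.33 with fish oil. All 6 colitis arrays lay above both healthy arrays. n-6 minus healthy was 1.66 (SE 0.52; limma adjusted p = 0.243) and fish oil minus healthy was 1.70 (SE 0.52; limma adjusted p = 0.995). ALA minus healthy was 0.85 (SE 0.52; limma adjusted p = 0.796).

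These Osmr values moved with the background correction and with 1 array. Under normexp they were 0.53 for n-6, 0.85 for fish oil and 0.32 for ALA, and fish oil minus healthy was 1.01 without fish oil replicate 1, the array of lowest signal. Before scaling, the mean Osmr signal was 41.5 and 14.2 on the n-6 arrays, 15.4 and 16.4 on the fish oil arrays and 7.36 and 11.4 on the healthy arrays.

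**Figure D2:**
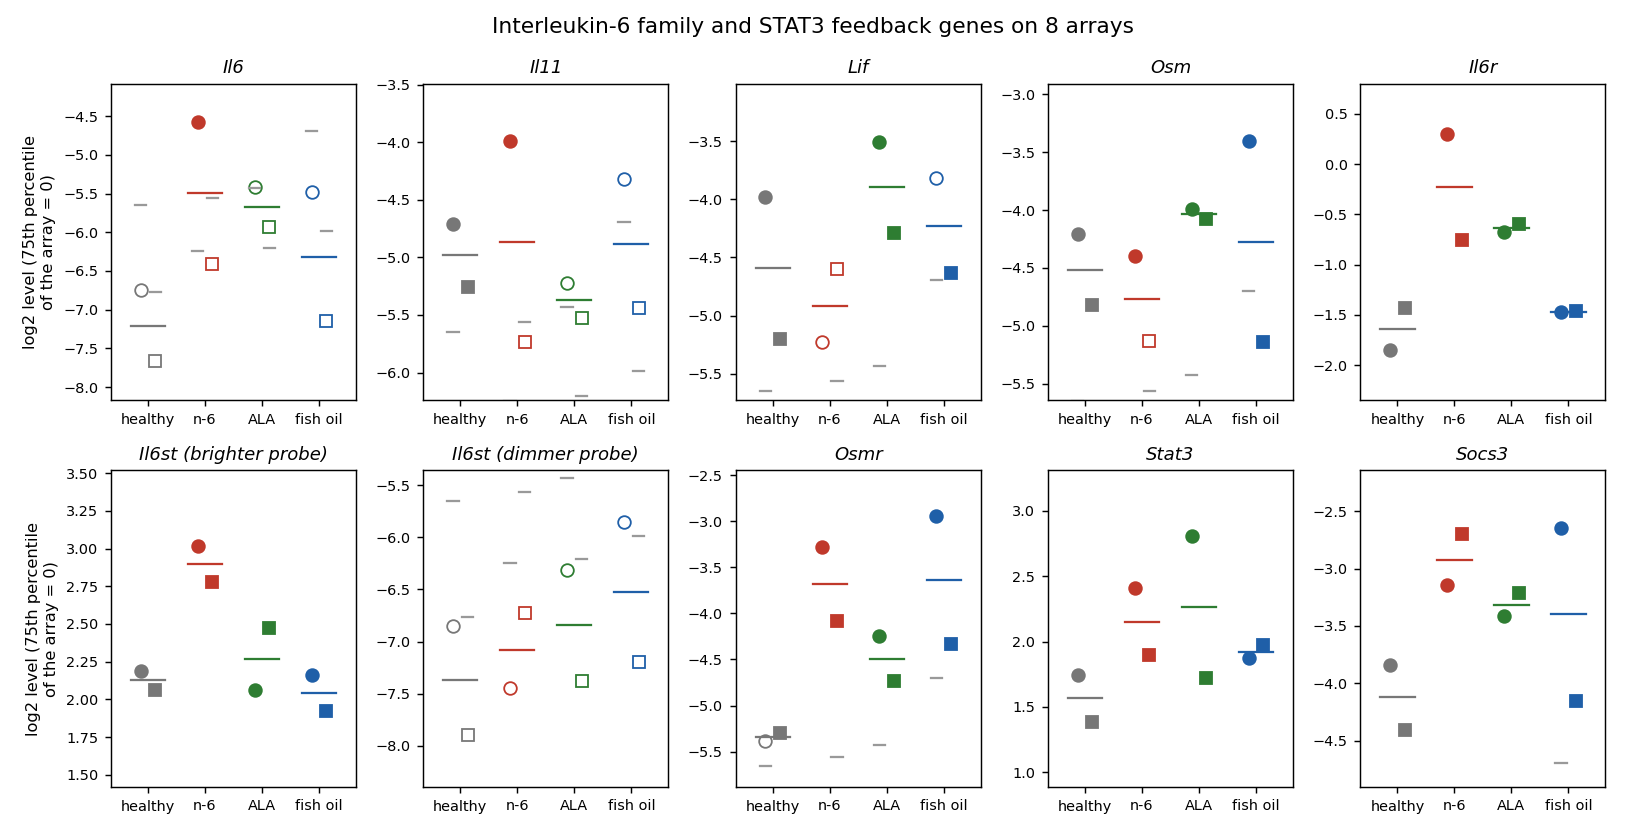
Log2 level of each member probe on the 8 arrays, each panel on its own axis. Circles are replicate 1 and squares replicate 2, filled where the probe was well above background, coloured bars are group means, and short grey marks are the dimmest level called well above background on an array where it falls within the panel. Osmr is higher on all 6 colitis arrays than on the healthy arrays, the brighter Il6st probe is highest on both n-6 arrays, and Il6 is filled on n-6 replicate 1 alone.

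Among 8 other receptor chains and receptor partners on the array, 5 were tested and none passed in any comparison. Il27ra, the gp130 partner for IL-27, had the smallest p-values of this list. It was at -4.76 and -4.57 in healthy colon, -3.11 and -3.84 in the n-6 group, -3.62 and -2.74 with ALA and -5.83 and -6.18 with fish oil. Both fish oil arrays lay below the other 6. They also lay below the dimmest level called well above background on their array, -4.70 on replicate 1 and -5.99 on replicate 2. The fish oil level of Il27ra is thus only a bound, and the 2 differences that follow rest on it. Fish oil minus n-6 was -2.53 (SE 0.42; limma adjusted p = 0.382), and ALA minus fish oil was 2.83 (SE 0.42; limma adjusted p = 0.478). The summed linear level of 6 B-cell markers was highest on the same arrays as Il27ra, at 19.2 on ALA replicate 2 and 15.6 on n-6 replicate 1. It was 4.08 and 1.34 on the other ALA and n-6 arrays, 1.17 to 1.33 in healthy colon and 0.87 to 2.12 with fish oil. The median difference of these markers in ALA minus fish oil was 4.62, and their part in the Il27ra differences was not tested. Il11ra1, the receptor for IL-11, was -0.85 in ALA minus fish oil. Lifr, Cntfr and Il31ra did not pass the filter.

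Stat3 was well above background on all 8 arrays, and none of its differences between groups passed. Its levels were 1.75 and 1.39 in healthy colon, 2.41 and 1.89 in the n-6 group, 2.81 and 1.72 with ALA and 1.87 and 1.97 with fish oil. After scaling, both n-6 and both fish oil arrays lay above the healthy arrays, while the ALA arrays spread over more than the whole of those groups. Before scaling, the signals of n-6 replicate 2 (890) and fish oil replicate 1 (423) were below both healthy signals (1023 and 1151). n-6 minus healthy was 0.59 (SE 0.43), with an interval from -0.43 to 1.60 and a limma adjusted p of 0.588, and it was 0.33 without n-6 replicate 1. ALA minus healthy, 0.70, was 0.15 without ALA replicate 1. A single spot measured Stat3 on each array, and the arrays report mRNA only, not the phosphorylated protein.

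Of 11 kinases, adaptors and other STATs of the pathway on the array, all 11 were tested and none passed. In n-6 minus healthy, Stat5a, a STAT that responds to many of the same receptors, was 0.86 (limma adjusted p = 0.304). Gab1, an adaptor that links gp130 to other kinases, was -1.70 (limma adjusted p = 0.314). Its level on n-6 replicate 1, -6.93, lay below the dimmest level called well above background there, -6.24, and is only a bound. The median over these 11 genes in n-6 minus healthy was 0.06, against 0.03 over all genes tested.

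The mean of Socs3 was lowest in healthy colon. Its levels were -3.84 and -4.40 (healthy), -3.15 and -2.70 (n-6), -3.42 and -3.21 (ALA) and -2.64 and -4.16 (fish oil). After scaling, both n-6 arrays lay above both ALA arrays, and both ALA arrays above both healthy arrays. The fish oil arrays covered nearly the whole range. n-6 minus healthy was 1.20 (SE 0.52, interval -0.04 to 2.44; limma adjusted p = 0.363) and ALA minus healthy was 0.81 (limma adjusted p = 0.80). Neither passed, and under normexp they were 0.51 and 0.39.

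The fish oil arrays gave no single answer for Socs3. Fish oil minus healthy was 0.72, but -0.03 without fish oil replicate 1 and 1.48 without fish oil replicate 2. The unscaled mean signal was 18.8 on the first and 18.3 on the second, so the 2 arrays part only after scaling by their 75th percentiles of 115 and 325. Fish oil minus n-6 was -0.48, with an interval from -1.72 to 0.76.

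The other inhibitors of the pathway were on the array for 12 genes, of which 11 were tested and none passed. Ptpn1, a phosphatase that acts on JAK kinases, was at 2.83 and 2.71 in healthy colon, 4.41 and 4.02 in the n-6 group, 3.69 and 3.50 with ALA and 2.86 and 2.97 with fish oil. The 4 groups do not overlap for Ptpn1. n-6 minus healthy was 1.44 (SE 0.29; limma adjusted p = 0.14) and fish oil minus n-6 was -1.30 (limma adjusted p = 0.41). Ptpn6, the SHP-1 phosphatase of blood cells, was 1.24 in n-6 minus healthy and -1.20 in fish oil minus n-6. Socs5, a relative of Socs3, was -1.13 in fish oil minus n-6. The median of the 11 was -0.10 in n-6 minus healthy.

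Counted together, none of the 8 tested members passed an adjusted p of 0.05 in any of the 6 comparisons. The share of all tested genes that passed was 0.0385% in n-6 against healthy (7 genes), 0.0275% in ALA against n-6 (5 genes) and 0.0385% in fish oil against n-6 (7 genes). It was 0% in ALA against healthy, fish oil against healthy and ALA against fish oil, where unadjusted p-values under 0.05 numbered 1189, 708 and 1743. Under each of the 19 other settings the count of members that passed was also 0.

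At an unadjusted p under 0.05, 3 of the 8 members stood out in n-6 against healthy (Il6r, Il6st and Osmr, all higher), where 14.3% of all genes did. The count was 1 in ALA against healthy (Il6r; 6.55% of all genes) and 1 in fish oil against healthy (Osmr; 3.9%). It was 2 in fish oil against n-6 (Il6r and Il6st, both lower; 12%). It was 0 in ALA against n-6 (5.8%) and in ALA against fish oil (9.6%). All the members under this limit are receptor chains. The members were chosen with earlier results of these data known, so their counts are a description and no test.

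The arrays of 2 groups did not overlap, with n-6 higher than healthy, for 5 of the 8 members (Il6r, Il6st, Osmr, Stat3 and Socs3), as for 23.7% of all genes. With ALA higher than healthy this held for 4 (Osm, Il6r, Osmr and Socs3; 22.4% of all genes), and with fish oil higher for 2 (Osmr and Stat3; 18.3%). In ALA against n-6, 2 were higher (Lif and Osm; 16.9%) and 3 lower (Il6st, Osmr and Socs3; 13.1%). In fish oil against n-6, 2 were lower (Il6r and Il6st; 23.5%), and in ALA against fish oil 1 was higher (Il6r; 25.3%). Non-overlap of 2 arrays against 2 is thus common on this slide.

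The filter bears on these counts, since Il11 passed it through the healthy group alone and Osmr through the 3 colitis groups. Of the groups in ALA against n-6, Lif and Osm met it only in the ALA group, where they are higher. Lif was above background on neither n-6 array and Osm on 1. Both genes also met the filter in the healthy group, and Osm in the fish oil group. The 3 comparisons with the healthy group share its arrays. In the same way n-6 against healthy, ALA against n-6 and fish oil against n-6 all share the n-6 arrays.

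**Figure D3:**
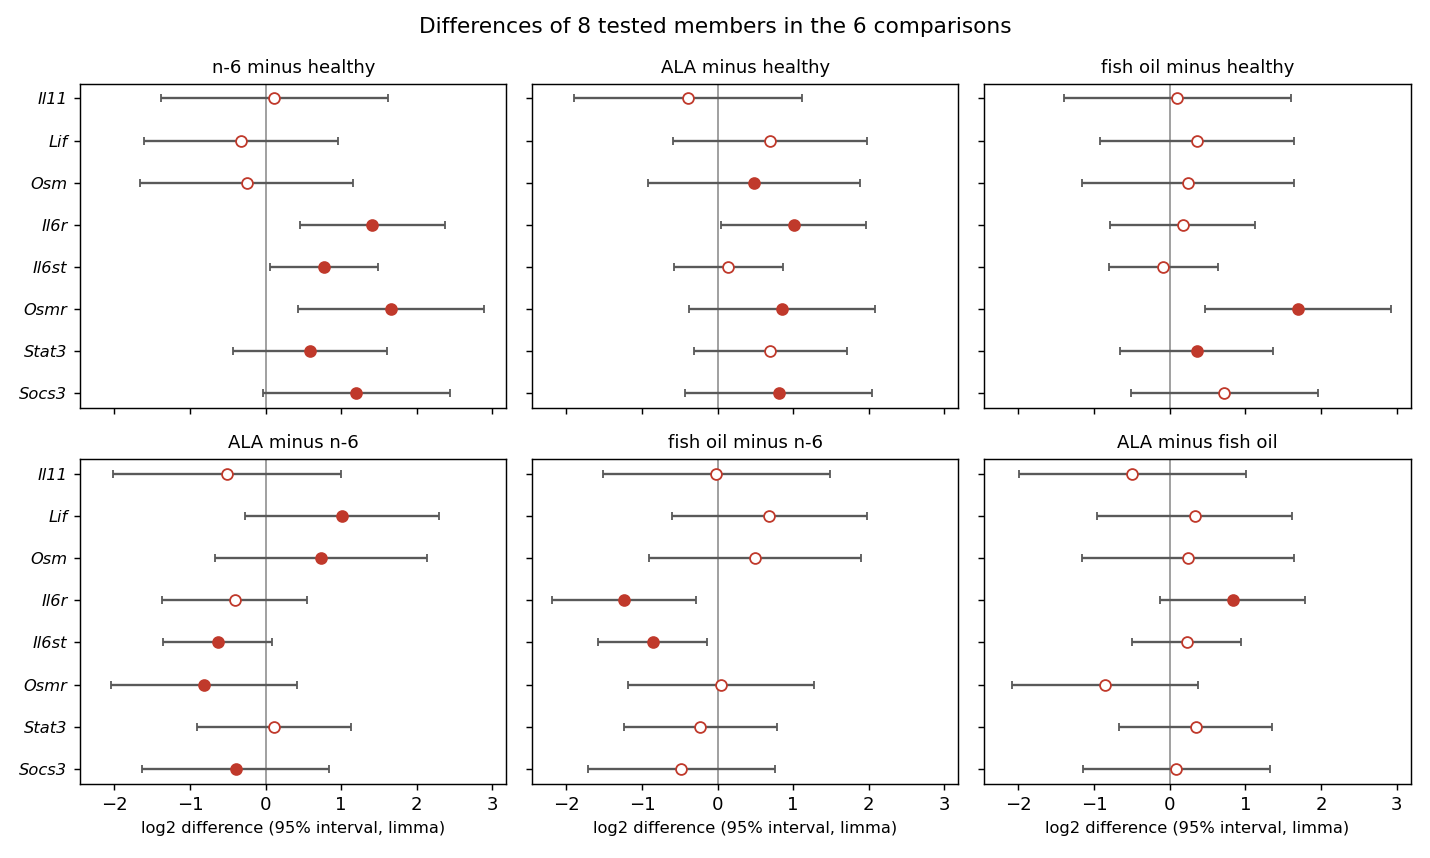
Log2 difference of the 8 tested members in the 6 comparisons, with 95% intervals from limma. Filled points mark genes whose arrays do not overlap between the 2 groups. In n-6 minus healthy the intervals of Il6r, Il6st and Osmr lie above 0 and that of Socs3 starts at -0.04, while in fish oil minus n-6 those of Il6r and Il6st lie below 0. No adjusted p was under 0.05.

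Genes that STAT3 is known to switch on were listed separately, 36 of 38 being on the array and 33 tested. None passed in any comparison. At an unadjusted p under 0.05, 11 were higher and 1 was lower in n-6 against healthy, where 6.56% and 7.75% of all genes were. The counts were 7 higher in ALA against healthy (4.36% of all genes), and 3 higher and 1 lower in fish oil against healthy (1.77% and 2.13%). In fish oil against n-6, 1 was higher and 10 were lower (6.01% and 5.97%). In ALA against n-6, 3 were lower (2.6%), and in ALA against fish oil 5 were higher (6.6%). The list was chosen with earlier results of these data known, so these counts and the medians below describe it and are no test of it.

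The median difference over these 33 genes was 1.003 in n-6 minus healthy, 0.92 in ALA minus healthy and 0.40 in fish oil minus healthy, where the medians over all genes were 0.03, 0.04 and 0.003. It was -0.28 in ALA minus n-6, -0.72 in fish oil minus n-6 and 0.05 in ALA minus fish oil. The ALA minus healthy median was 0.35 without ALA replicate 1. The fish oil minus n-6 median was -1.14 without fish oil replicate 1. The count that passed in n-6 against healthy, 0 here, was 4 under normexp and 3 once the prior was made robust with an intensity trend. It was 1 under median centring, with probes well above background on all 8 arrays, with the replicate number as a block and without n-6 replicate 2.

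**Figure D4:**
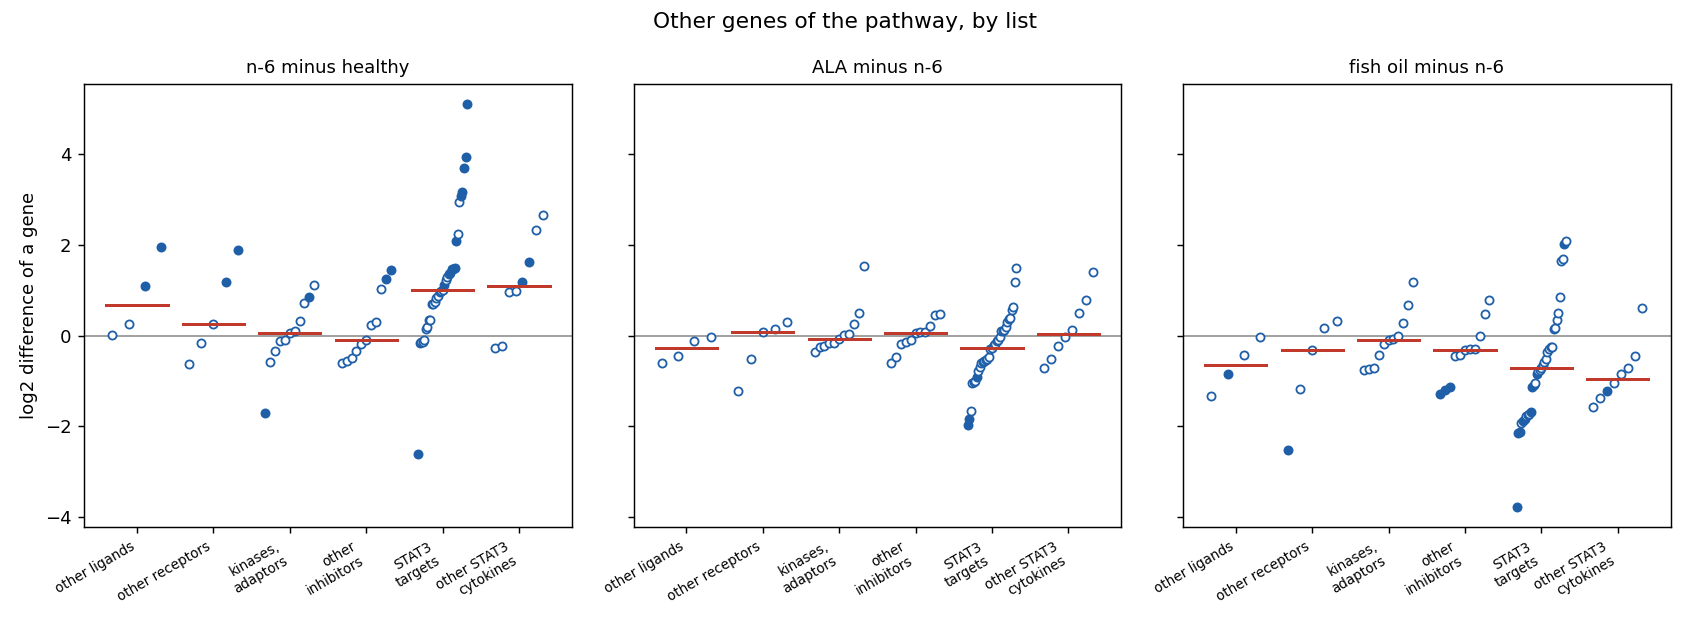
Log2 difference of each tested gene of the 6 pathway lists in n-6 minus healthy, ALA minus n-6 and fish oil minus n-6. Each point is a gene, filled at an unadjusted p under 0.05, and red bars are list medians. The bar of the STAT3 targets lies at 1.003, -0.28 and -0.72 in the 3 panels. No gene had an adjusted p under 0.05. The lists were chosen with earlier results of these data known.

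Timp1, a metalloproteinase inhibitor made during tissue repair, was the target with the smallest p. It was at 2.36 and 2.03 in healthy colon, 6.14 and 5.65 in the n-6 group, 4.21 and 3.61 with ALA and 4.24 and 3.25 with fish oil. All n-6 arrays lay above all ALA and fish oil arrays, and these above the healthy arrays. n-6 minus healthy was 3.70 (SE 0.44; limma adjusted p = 0.0707), and ALA and fish oil minus n-6 were -1.98 (limma adjusted p = 0.838) and -2.15 (limma adjusted p = 0.41).

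Il1rn, the antagonist of the interleukin-1 receptor, had the same order, at 0.72 and 0.86, 4.09 and 3.81, 2.04 and 2.17, and 2.66 and 1.48 for healthy, n-6, ALA and fish oil. n-6 minus healthy was 3.16 (SE 0.42; limma adjusted p = 0.0936).

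A2m, the acute-phase protease trap of the rat, was at -3.35 and -3.08 in healthy colon and at 2.60 and 1.20 in the n-6 group. It was at 0.29 and 2.12 with ALA but at -1.48 and -2.27 with fish oil. n-6 minus healthy was 5.11 (SE 0.71; limma adjusted p = 0.101), ALA minus healthy 4.42 (limma adjusted p = 0.656) and fish oil minus n-6 -3.78 (limma adjusted p = 0.41). The ALA and n-6 arrays overlap, and both fish oil arrays lie between those groups and the healthy arrays.

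Pim1, a survival kinase, likewise had overlapping n-6 and ALA arrays that lay above the fish oil and healthy arrays, at -3.86 and -3.86 (healthy), -2.44 and -2.51 (n-6), -2.29 and -2.45 (ALA) and -3.26 and -3.90 (fish oil). Its ALA minus fish oil difference was 1.20 (limma adjusted p = 0.478). Myc, the growth regulator, was lower with fish oil, at 0.29 and -0.28, than on any other array, the healthy ones being at 1.13 and 1.08. Fish oil minus n-6 was -1.84 for Myc (SE 0.36; limma adjusted p = 0.41). Bcl3, an NF-kappaB partner, was -0.90 in ALA minus n-6.

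Other cytokines and receptors that signal through STAT3 were on the array for 13 genes, with 8 tested and none passing. The median of the 8 was 1.09 in n-6 minus healthy and -0.95 in fish oil minus n-6. Csf3r, the G-CSF receptor of neutrophils, was at -4.90 and -5.55 in healthy colon and -3.40 and -3.79 in the n-6 group (difference 1.63; limma adjusted p = 0.166). Il23a, the IL-23 subunit, was 1.19 in n-6 minus healthy and -1.22 in fish oil minus n-6. Il10ra, the IL-10 receptor chain, was 2.40 in ALA minus healthy (limma adjusted p = 0.732). Its level on healthy replicate 2, -7.90, lay below the dimmest level called well above background there, -6.77, and is only a bound. Il10 counts in this list and among the STAT3 targets, and Csf3r is also a neutrophil marker.

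Markers of the cells that make or receive these signals also differed in summed level between groups. In whole tissue, fewer cells of a type and less RNA per cell cannot be told apart. The summed linear level of 10 neutrophil markers was 0.59 to 0.82 in healthy colon, 1.69 to 3.60 in the n-6 group, 1.22 to 2.21 with ALA and 1.13 to 1.79 with fish oil, with Elane and Cxcr2 above background on no array. That of 12 macrophage and monocyte markers was 50.4 to 51.4, 111 to 112, 96.9 to 102 and 71.8 to 97.5 in the same order, Cd14 being also a listed STAT3 target.

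The 11 fibroblast markers summed to 59.2 to 79.4 in healthy colon, 133 to 211 in the n-6 group, 73.3 to 86.7 with ALA and 67.9 to 90.7 with fish oil. The 14 epithelial markers summed to 264 on n-6 replicate 1, the array with measurable Il6 and the highest Il6r, and to between 480 and 831 on the other 7 arrays. The 4 red-cell markers on the array summed to 134 to 190 in the n-6 group and 5.61 to 11.7 elsewhere, and 3 of them passed in n-6 against healthy. The 7 T-cell markers summed to 9.90 to 10.03 in healthy colon, 12.8 to 13.2 in the n-6 group, 6.18 to 16.3 with ALA and 5.89 to 6.85 with fish oil. Members of that list went both ways. Of the 5 tested, 3 were higher on both n-6 arrays than on both healthy arrays, as were 23.7% of all genes. The other 2 were lower on both. The part of these cells in the differences of the members and of the other pathway genes was not tested.

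Over the 8 arrays, which share their groups, slide and scaling, the members were alike to different degrees. Il6r and Il6st had the highest Pearson r of any pair, 0.78, and Lif and Il6st the lowest, -0.43. Il6 had an r of 0.74 with Osmr, 0.73 with Il6r and 0.71 with both Socs3 and Stat3. Socs3 had an r of 0.73 with Osmr but 0.30 with Stat3.

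Among all named genes past the filter, the levels most like those of Il6 belonged to Eif5a2 (r = 0.964), Vasn (0.961), Lef1 (0.961), Rps15al1 (0.957) and Stard6 (0.953). For Socs3 they were Babam1 (0.952), Chd1 (0.949), Rps12 (0.945), Rpl18 (0.942) and Srek1ip1 (0.941). These are descriptions over 8 arrays, and for Il6 they rest on levels that were above background on 1 array.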

How the data were processed

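The authors ran 8 one-colour Agilent rat arrays, and the deposited scanner files hold spot intensity values made by Agilent Feature Extraction 11.5.1.1, per the file headers, background-subtracted and detrended within each array. The deposited value table holds log2 values per gene symbol, with a 75th percentile near 0 on each array.

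From the scanner files, controls and outlier-marked spots were removed, log2 signals were averaged per probe and the 75th percentile of each array was subtracted. Probes were tested if both arrays of at least 1 group showed them well above background (no fewer kept spots above than not), and the brightest probe stood for a gene. Names came from a RefSeq table of GRCr8, which matched 18350 probes by accession, 454 by another accession, 2533 by symbol and 407 by synonym and left 8610 with the file's name. 13 probes with no kept spot on an array were dropped. limma 3.58.1 in R 4.3.3 fitted all 8 arrays together with no covariate (4 residual and 3.02 prior degrees of freedom), and Benjamini-Hochberg adjusted over 18165 genes, with a threshold of 0.05. The procedure was tested on simulated data. Other settings changed the background correction, scaling, filter, source, probes of a gene, arrays in the fit, replicate block, prior, outlier spots and each array left out.

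The members and pathway lists were chosen with earlier results of these data known. All members are described. For each list and comparison, up to 3 genes of smallest unadjusted p under 0.05 are named, except 1 that is not reported here, and for Il6 and Socs3 the 5 genes of highest r. Sequences are those of the files, and promoters are from RefSeq, GRCr8.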

Additional observations from a re-analysis of the deposited data

Results flagged for a closer look

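The Il6 probe carries single spots that Feature Extraction marked as outliers and that the levels above leave out. On fish oil replicate 2 such a spot had a signal of 23.2, a log2 level of -3.81, while the kept spots of that array averaged -7.15 and the highest healthy spot of any kind lay at -5.34. On n-6 replicate 1 the marked spot had a signal of 49.3, a level of -3.03, while the kept spots averaged -4.58. Both lie above every Il6 spot of the healthy arrays. What made these spots bright was not tested.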

How the results depend on the processing

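None of the 8 tested members passed under any of 19 other settings. Of 888 differences of members under those settings, 838 kept their sign and 50 did not, and 24 of the 48 combinations of member and comparison kept 1 sign throughout. The cause of the changes below was not tested.

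Counts of all genes that passed moved as follows. In n-6 against healthy (7 here) they were 69 under normexp, 13 under median centring, 4 with no filter, 2 in the deposited table, 29 once the prior was made robust with an intensity trend, and 0 to 23 with an array left out. In ALA against n-6 (5 here) the count was 0 with no filter, in the deposited table, with all of a gene's probes averaged and with each array left out (0 to 0). In fish oil against n-6 (7 here) it was 4 under normexp, 4 with probes well above background on all 8 arrays and 0 to 6 with an array left out. In fish oil against healthy (0 here) it was 2 under median centring and 1 under quantile normalization. In ALA against fish oil (0 here) it was 1 under quantile normalization and 0 to 1 with an array left out, and in ALA against healthy 0 to 1. Fitting only the groups compared gave 0 in n-6 against healthy, ALA against n-6 and fish oil against n-6. Where 1 array is left out, the lone array of its group is assumed to vary like the others.

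The replicate numbers are not said to pair arrays across groups. The correlation of same-numbered deviations ran from -0.17 (fish oil with n-6) to 0.47 (healthy with ALA). What lay behind these values was not tested. With the replicate block the counts were 13 in n-6 against healthy, 0 in ALA against n-6 and 5 in fish oil against n-6.

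Under normexp these signs turned: Il6 fish oil minus n-6 0.31 and ALA minus fish oil -0.37, Lif n-6 minus healthy 0.092 and ALA minus fish oil -0.28, Osm n-6 minus healthy 0.12 and ALA minus fish oil -0.30, Il11 ALA minus healthy 0.11 and fish oil minus n-6 0.34, and Socs3 fish oil minus n-6 0.15 and ALA minus fish oil -0.27. Under quantile normalization Il11 fish oil minus n-6 was 0.026, Osmr fish oil minus n-6 -0.045, Osm ALA minus fish oil -0.20 and Socs3 ALA minus fish oil -0.12. Under median centring Stat3 ALA minus n-6 was -0.084 and Osmr fish oil minus n-6 -0.086. In the deposited table Il6 was 0.22 in ALA minus n-6, 0.84 in fish oil minus n-6 and -0.62 in ALA minus fish oil. There Il11 was -0.022 in n-6 minus healthy and -0.059 in fish oil minus healthy, and Osm -0.062 in ALA minus fish oil.

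Leaving out 1 array turned further signs. Il6 ran from -1.09 to 0.74 in ALA minus n-6, -1.74 to 0.10 in fish oil minus n-6 and -0.19 to 1.48 in ALA minus fish oil. Il11 ran from -0.76 to 0.99 in n-6 minus healthy, -0.45 to 0.66 in fish oil minus healthy, -1.38 to 0.37 in ALA minus n-6, -0.89 to 0.86 in fish oil minus n-6 and -1.05 to 0.063 in ALA minus fish oil. Lif ran from -0.93 to 0.29 in n-6 minus healthy, -0.25 to 0.97 in fish oil minus healthy and -0.080 to 0.74 in ALA minus fish oil. Osm ran from -0.62 to 0.12 in n-6 minus healthy, -0.63 to 1.11 in fish oil minus healthy, -0.38 to 1.36 in fish oil minus n-6 and -0.63 to 1.11 in ALA minus fish oil. Il6r ran from -0.035 to 0.38 in fish oil minus healthy and -0.94 to 0.12 in ALA minus n-6, and Il6st from -0.066 to 0.35 in ALA minus healthy and -0.21 to 0.036 in fish oil minus healthy. Osmr ran from -0.65 to 0.73 in fish oil minus n-6. Stat3 ran from -0.43 to 0.66 in ALA minus n-6, -0.49 to 0.030 in fish oil minus n-6 and -0.20 to 0.89 in ALA minus fish oil. Socs3 ran from -0.034 to 1.48 in fish oil minus healthy, -1.24 to 0.28 in fish oil minus n-6 and -0.67 to 0.84 in ALA minus fish oil.

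Median centring moved the median of all genes by over 0.1, to 0.17 in n-6 minus healthy, -0.13 in ALA minus n-6 and -0.12 in fish oil minus n-6, and normexp moved it to 0.24 in fish oil minus healthy, 0.23 in fish oil minus n-6 and -0.18 in ALA minus fish oil. The share of higher genes among those that passed in n-6 against healthy was 85.7% here, 75.4% under normexp and 100% in the deposited table. In fish oil against n-6 it was 42.9% here, 0% under normexp and 60% in the deposited table. A level not above background is only a bound, which applies to Il6 on 7 of the 8 arrays, Il11 on 5, Lif on 3, and Osm and Osmr on 1 each.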
